A study of Mus musculus with 4 samples.

Results

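The expression of 44 interferon-stimulated genes was examined in the hippocampus of wild-type (WT) and Lsd1 knock-in (KI) mice. Lsd1, also called Kdm1a, encodes a histone demethylase, and in the KI allele the serine that PKCα phosphorylates is replaced by alanine, on both copies of the gene. Poly(A) RNA of the hippocampus had been sequenced for 2 WT and 2 KI samples, all from male mice of the C57BL/6 strain and compared as littermates. An age of 8 to 15 weeks is stated for the mice of the behavioral experiments, and the labels do not say whether a sample came from 1 animal or from several. The genes were chosen as known targets of type I and type II interferon whose KI and WT values had been seen in these same samples. The KI and WT values are therefore given as a description, and the limma fit over all genes is no independent test of these genes. They are 44 of the 26328 genes listed in at least 1 sample, and all 44 were matched by symbol to an Ensembl ID that the files hold.

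Type I interferons signal through the IFNAR1 and IFNAR2 receptor and the kinases JAK1 and TYK2 to a complex that holds STAT2 and IRF9, which binds the interferon-stimulated response element (ISRE) in the promoters of its targets. Type II interferon, IFN-γ, signals through IFNGR1 and IFNGR2 to promoters with the GAS element and induces Irf1 and the interferon-inducible GTPases. Their targets include sensors of viral RNA, blocks on translation, the ubiquitin-like protein ISG15 and membrane-bound antiviral factors, and in the brain they can be expressed by microglia, endothelial cells, astrocytes and neurons.

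The promoters of these genes were searched for both elements. The genes were chosen as known interferon targets, so a high share with the ISRE follows in large part from that choice. It is no independent support. RefSeq promoters of 300 bases (250 before to 50 after the start of the gene, GRCm38.p6) were available for 35 of the 44 genes. Of these 35 genes, 16 held the core of the ISRE (GAAA, any 2 bases, then GAAA) on either strand, a share of 45.7%, against 3.99% of all 27025 genes of the promoter table. The GAS letters TTCNNNGAA, which can share bases with an ISRE, were in the promoters of 8 of the 35 genes, 22.9%, against 9.55% of all genes of the table. A match is a description of the letters, not evidence of binding. The 4 promoters printed here belong to the genes with the widest KI and WT difference among those that hold the ISRE core. Each is read in the direction of transcription, with the matches to the ISRE core in capitals and the GAS letters not marked. The Ifit3 promoter lies at chr19:34583279-34583578 on the forward strand, that of Bst2 at chr8:71537423-71537722 on the reverse strand, that of Ifit1 at chr19:34640639-34640938 on the forward strand and that of Igtp at chr11:58199306-58199605 on the forward strand.
Ifit3: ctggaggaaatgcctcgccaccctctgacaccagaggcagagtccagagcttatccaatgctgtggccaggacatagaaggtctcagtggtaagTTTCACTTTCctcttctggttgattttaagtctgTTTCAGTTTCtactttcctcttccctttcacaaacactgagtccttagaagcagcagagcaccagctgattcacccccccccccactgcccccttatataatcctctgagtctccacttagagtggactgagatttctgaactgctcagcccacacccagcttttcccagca
Bst2: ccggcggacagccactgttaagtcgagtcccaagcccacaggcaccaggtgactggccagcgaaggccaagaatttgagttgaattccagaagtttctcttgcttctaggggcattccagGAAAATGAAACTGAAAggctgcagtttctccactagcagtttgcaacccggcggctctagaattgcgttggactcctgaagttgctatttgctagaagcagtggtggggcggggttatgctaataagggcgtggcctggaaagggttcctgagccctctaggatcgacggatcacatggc
Ifit1: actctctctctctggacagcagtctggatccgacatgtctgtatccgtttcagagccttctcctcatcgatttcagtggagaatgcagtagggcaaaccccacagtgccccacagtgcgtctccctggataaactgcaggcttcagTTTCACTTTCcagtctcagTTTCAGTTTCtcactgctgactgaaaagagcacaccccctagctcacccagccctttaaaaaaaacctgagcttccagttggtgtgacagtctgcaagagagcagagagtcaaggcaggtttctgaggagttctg
Igtp: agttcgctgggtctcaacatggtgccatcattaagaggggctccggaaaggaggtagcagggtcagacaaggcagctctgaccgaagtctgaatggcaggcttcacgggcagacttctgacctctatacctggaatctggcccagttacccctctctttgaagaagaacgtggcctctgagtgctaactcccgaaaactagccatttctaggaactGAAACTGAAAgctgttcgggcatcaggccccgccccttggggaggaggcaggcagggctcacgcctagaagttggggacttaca
Ifit3 and Ifit1 each held 2 separate matches, both on the strand opposite to the gene, which began 156 and 122 bases before the start of Ifit3 and 104 and 85 bases before the start of Ifit1. In Bst2 the 2 matches overlapped, 130 and 124 bases before the start. Igtp held 1 match to the ISRE core, 34 bases before the start. Bst2 and Igtp each also held 1 run of the GAS letters. The 14 genes that held the ISRE core and entered the fit had a median log2 difference between KI and WT of 0.40, from 0.15 to 0.86. The 18 without it had a median of 0.19, from -0.10 to 1.37. The genes were chosen on these same differences, so the medians describe the genes and support nothing further. The 9 genes with no promoter available are in neither group. Ifih1, which held the core, entered the fit through its KI values alone. Lgals3bp and Irf7, which had the widest log2 differences of the 39 genes in the fit, did not hold these letters in the 300 bases searched.

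Depth was worked out from the whole-read steps of the RPKM values (read counts scaled to the length of the exons and to the depth of the library). It came to 13415000 and 8828000 mapped reads for WT and to 14381000 and 14950000 for KI. At 2 kb of exon, 1 read was worth from 0.0334 RPKM in the deepest library, KI replicate 2, to 0.0566 RPKM in the shallowest, WT replicate 2. Kdm1a was at 11.6 and 11.2 RPKM in WT and 10.97 and 11.2 RPKM in KI, and an RPKM value cannot show a substitution of 1 residue. The hippocampal neuron markers Camk2a, Snap25 and Neurod6 were at 114 RPKM or more in all 4 samples. The dentate granule cell markers Prox1 and C1ql2 were lower in both KI samples, with Prox1 at 17.3 and 16.9 RPKM in WT and 10.2 and 13.1 RPKM in KI. Ttr, which marks the choroid plexus, stood at 51.3 RPKM in KI replicate 1 against 8.13 to 13.9 RPKM in the other samples.

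KI and WT were compared with limma on log2(RPKM + 1) for 18436 genes, those that reached 0.5 RPKM in 2 or more samples. A log2 difference is the KI mean minus the WT mean on that scale, with its standard error (SE). Of the 44 genes, 39 entered this fit and 5 (Oas2, Rsad2, Ifi44, Zbp1 and Cxcl10) were below the filter. Usp18, Ifih1 and Parp14 entered it through their KI values alone, since both of their WT values were under 0.5 RPKM. With an adjusted p under 0.1 and a 1.2-fold difference required, limma called 0 of the 18436 genes (0.00%), with a smallest Benjamini-Hochberg adjusted p of 0.197, and 0 of the 39. Before adjustment, 1774 genes had a limma p under 0.05. These were 6.30% of the genes tested with the higher level in KI and 3.33% with the lower. With 2 samples against 2, an exact permutation test cannot give a p below 0.333. The paper, which used another method (edgeR), did report differentially expressed genes. The count of 0 genes called holds for limma on these RPKM values.

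The interferon-stimulated genes stood higher in KI, from a similar level in both WT samples. In 33 of the 44 genes the lower KI value exceeded the higher WT value, in 0 genes the order was the reverse, and in 11 the groups overlapped. The same order, KI above WT, held for 21.2% of all 26328 genes listed and 24.0% of the genes tested, and the reverse order for 18.1% of the genes tested. In the fit, the difference was above 0 in 38 of the 39 genes (54.4% of all genes tested) and reached 1.2-fold upward in 22 (8.73% of all genes tested). The median log2 difference of the 39 genes was 0.28, against 0.01 over all genes tested, and the range was -0.10 to 1.37. Their mean log2(RPKM + 1) was 1.41 and 1.42 in the WT samples, 1.66 in KI replicate 1 and 1.89 in KI replicate 2. The choice of the genes rested on this contrast, so these counts describe them and support nothing further. In bulk tissue, more cells that express a gene and more RNA of it per cell cannot be told apart.

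**Figure D1:**
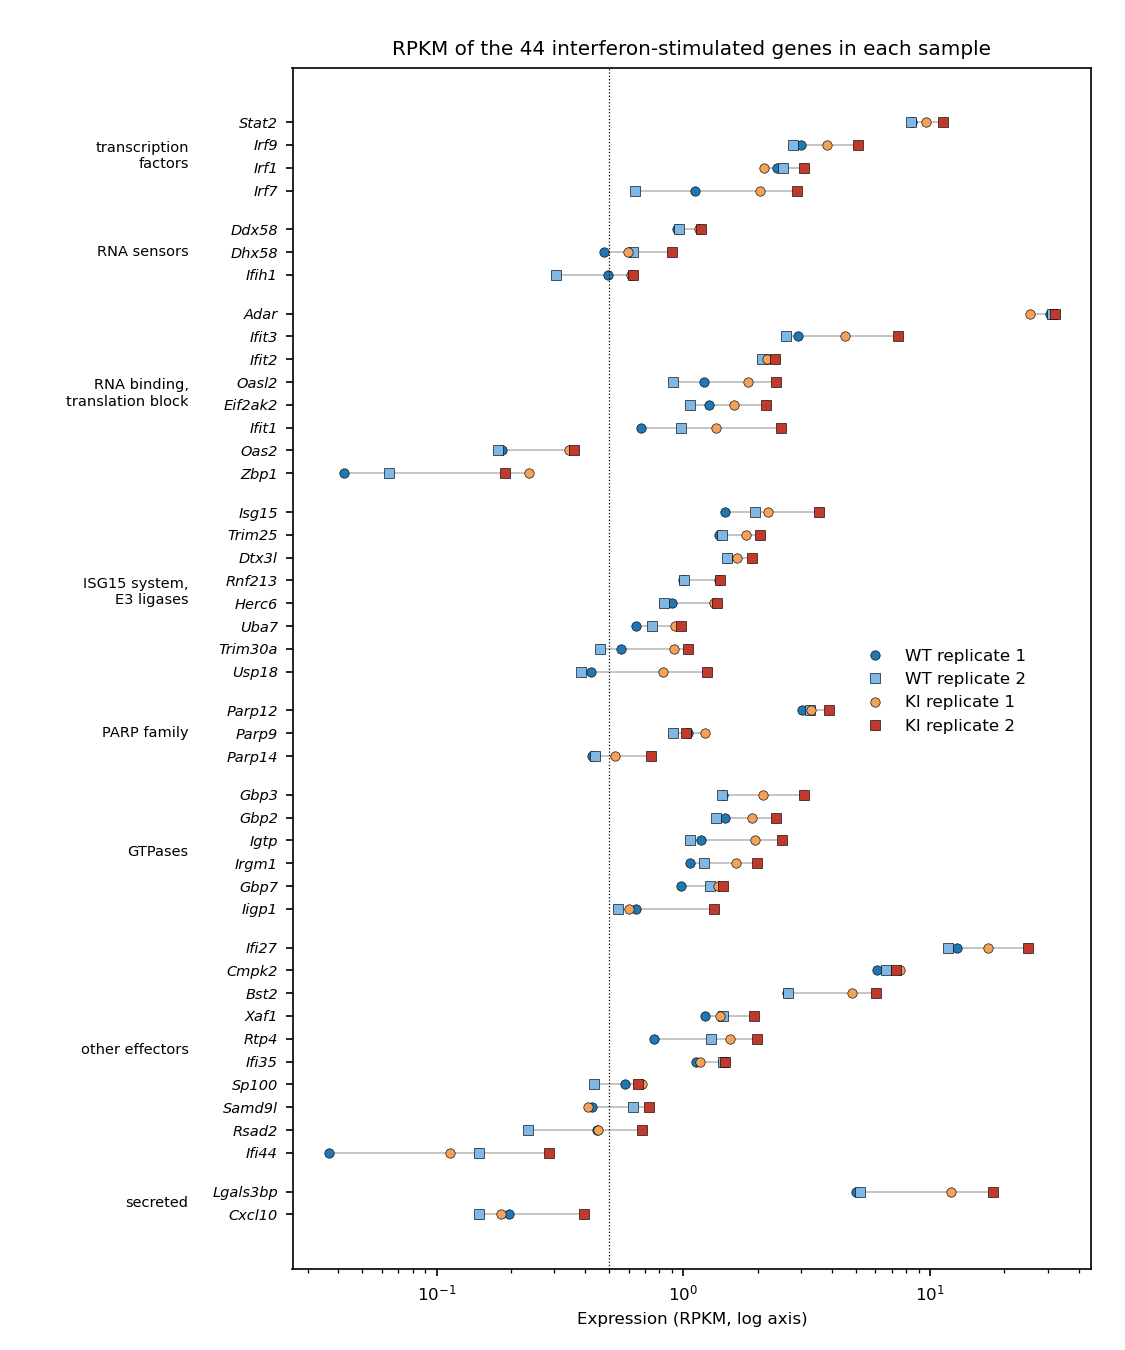
Expression of the 44 interferon-stimulated genes in each of the 4 samples, grouped by role, in RPKM on a log axis, with 1 point per sample, a grey line from the lowest to the highest sample and a dotted line at the filter of 0.5 RPKM. KI replicate 2, the red squares, is the highest of the 4 samples in 40 of the 44 genes.

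Values are given for replicate 1 and then replicate 2 of each group, and means with the SD (n = 2 each). Of the transcription factors, Irf7, which amplifies type I interferon production, was at 1.11 and 0.638 RPKM in WT and 2.05 and 2.90 RPKM in KI. These are means of 0.874 ± 0.335 and 2.48 ± 0.603 RPKM, a ratio of 2.83 and a log2 difference of 0.89 (SE 0.20). Irf9, the DNA-binding partner of STAT2, was at 3.003 and 2.78 RPKM in WT and 3.81 and 5.13 RPKM in KI (log2 difference 0.48, SE 0.14). The groups did not overlap in either gene, and KI replicate 2 was the highest sample in both. Irf9 shares 123 exon bases with Rnf31 on the same strand. Stat2 was the most abundant of the 4 factors, with 8.43 and 8.35 RPKM in WT and 9.63 and 11.3 RPKM in KI (log2 difference 0.28, SE 0.09). Irf1, an early target of IFN-γ, was at 2.40 and 2.54 RPKM in WT and 2.13 and 3.08 RPKM in KI, so that the KI samples lay on either side of both WT samples. Without KI replicate 2 the log2 difference of Irf1 turned from 0.04 to -0.15.

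The sensors of viral RNA showed narrower differences. Ifih1, which encodes MDA5, had the widest log2 difference of the 3, 0.21, with 0.493 and 0.305 RPKM in WT and 0.613 and 0.623 RPKM in KI. Ddx58, which encodes RIG-I, had the narrowest, 0.15, and its samples were close within each group, at 0.941 and 0.964 RPKM in WT and 1.15 and 1.18 RPKM in KI. Dhx58, which encodes the regulatory helicase LGP2, overlapped between the groups, since KI replicate 1 (0.595 RPKM) lay under WT replicate 2 (0.623 RPKM).

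Among the genes that bind viral RNA or block translation, the IFIT genes differed among themselves. Ifit2, Ifit3 and Ifit1 lie in this order on chromosome 19, with 7111 bases between the first pair and 52139 bases, which hold Ifit3b among others, between the last. Ifit3 was at 2.90 and 2.60 RPKM in WT and 4.54 and 7.40 RPKM in KI, resting on 68, 40, 114 and 193 reads, and its mean went from 2.75 ± 0.218 to 5.97 ± 2.02 RPKM (ratio 2.17, log2 difference 0.86, SE 0.21). Ifit1, whose product binds the cap of foreign RNA, was at 0.674 and 0.981 RPKM in WT and 1.36 and 2.49 RPKM in KI (log2 difference 0.66, SE 0.23). Ifit2 was at 2.20 and 2.08 RPKM in WT and 2.18 and 2.35 RPKM in KI, and its groups overlapped. Both Ifit1 and Ifit3 were thus higher in both KI samples and Ifit2 was not. Reads shared by near-identical copies such as Ifit3 and Ifit3b could not be assigned, since only uniquely mapped pairs were kept.

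Oasl2, a member of the oligoadenylate synthetase family, was at 1.21 and 0.905 RPKM in WT and 1.83 and 2.38 RPKM in KI (ratio 1.99, log2 difference 0.59, SE 0.15). Eif2ak2, which encodes the translation-blocking kinase PKR, had a log2 difference of 0.41, and its groups did not overlap. Adar, an RNA editing enzyme with an interferon-inducible isoform, was the most abundant of the 44 genes and the exception among those in the fit. It was at 30.5 and 31.1 RPKM in WT and 25.5 and 32.1 RPKM in KI (log2 difference -0.10, SE 0.12), with KI replicate 1 the lowest and KI replicate 2 the highest sample. Without KI replicate 1 its difference was 0.06. The Adar exons share 1365 bases, 16.8% of their length, with Chrnb2 on the opposite strand, and reads from such an overlap cannot be told apart without strand. Zbp1, a sensor of Z-form nucleic acid, and Oas2, which makes the activator of RNase L, were below the filter. Zbp1 rested on 2 reads in each WT sample against 12 and 10 for KI. Oas2 had 11 and 7 reads for WT against 22 and 24 for KI. Neither gene overlapped between the groups.

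In the ISG15 system, ISG15 is attached to proteins by the E1 enzyme UBA7 and the E3 ligase HERC6 and removed by USP18. Among the genes of this system and the other ligases, both KI values were above both WT values in 8 of 8. This order held for 24.0% of all genes tested. Usp18, which entered the fit through its KI values alone, had the widest log2 difference, 0.53 (SE 0.15). It was at 0.421 and 0.384 RPKM in WT and 0.825 and 1.25 RPKM in KI, a ratio of 2.57. Isg15, one of 2 of the genes on chromosome 4 with Kdm1a and 19.6 Mb from it, was at 1.48 and 1.95 RPKM in WT and 2.21 and 3.54 RPKM in KI on 15, 13, 24 and 40 reads (log2 difference 0.50, SE 0.21). The other gene on that chromosome, Ddx58, lies 96.3 Mb away. Herc6, Uba7, Trim25, which activates RIG-I, Trim30a and the large ligase Rnf213 had log2 differences from 0.20 in Uba7 to 0.39 in Trim30a. Rnf213 showed the closest replicates of these, with 0.993 and 1.01 RPKM in WT and 1.39 and 1.41 RPKM in KI. Dtx3l, the partner of PARP9, had the narrowest difference, 0.14.

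Of the PARP genes, which encode ADP-ribosyltransferases or their relatives, Parp12 was the most abundant, at 3.02 and 3.26 RPKM in WT and 3.29 and 3.88 RPKM in KI (log2 difference 0.14). Parp14 was at 0.425 and 0.438 RPKM in WT and 0.531 and 0.740 RPKM in KI (log2 difference 0.19). Parp9 had a difference of 0.11 and overlapped between the groups, and it shares 458 exon bases with Dtx3l on the opposite strand.

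The interferon-inducible GTPases, which act on the membranes around intracellular pathogens, were higher in both KI samples in 5 of 6 genes, against 24.0% of all genes tested. Their median log2 difference was 0.38. Igtp, an IRG protein also known as Irgm3, was at 1.18 and 1.06 RPKM in WT and 1.96 and 2.51 RPKM in KI (ratio 1.99, log2 difference 0.60, SE 0.13), on 32, 19, 57 and 76 reads. It shares 162 exon bases with the neighbouring GTPase gene Irgm2. Gbp3 was at 1.45 and 1.43 RPKM in WT and 2.10 and 3.10 RPKM in KI (ratio 1.80, log2 difference 0.55, SE 0.16). Irgm1, Gbp2 and Gbp7 had log2 differences of 0.40, 0.37 and 0.18. In Iigp1 the value of 1.33 RPKM in KI replicate 2 stood apart from 0.602 RPKM in KI replicate 1, which lay between the WT values of 0.645 and 0.544 RPKM, so its difference of 0.28 came from 1 KI sample.

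Of the other effectors, Bst2, which encodes tetherin, a membrane protein that retains budding virus, was at 2.63 and 2.67 RPKM in WT and 4.82 and 6.04 RPKM in KI. Its means were 2.65 ± 0.0243 and 5.43 ± 0.861 RPKM, a ratio of 2.05 and a log2 difference of 0.81 (SE 0.12). Ifi27 was at 12.9 and 11.8 RPKM in WT and 17.1 and 25.0 RPKM in KI, on 253, 153, 361 and 548 reads (log2 difference 0.70, SE 0.18). In both genes every KI value exceeded both WT values. Cmpk2, a mitochondrial nucleotide kinase, was at 6.08 and 6.62 RPKM in WT and 7.57 and 7.26 RPKM in KI (log2 difference 0.19, SE 0.07), one of 4 genes with KI replicate 1 above KI replicate 2. Rsad2, which encodes viperin and lies next to Cmpk2 on chromosome 12, was below the filter, at 0.448 and 0.236 RPKM in WT and 0.4499 and 0.680 RPKM in KI. Rtp4 had a log2 difference of 0.46 and Sp100 of 0.15, both without overlap of the groups. Xaf1, Samd9l and Ifi35 overlapped, with differences of 0.19, 0.04 and 0.02. Ifi35 shares 290 exon bases, 16.8% of its length, with Gm11626. Ifi44 was also below the filter and overlapped, at 0.0366 and 0.148 RPKM in WT and 0.114 and 0.284 RPKM in KI.

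Of the 2 genes with secreted products, Lgals3bp, which encodes a galectin-3-binding glycoprotein, had the widest difference of the 39 genes. The gene (ENSMUSG00000033880) lies at chr11:118392751-118402092 on the reverse strand (GRCm38). It was at 5.001 and 5.21 RPKM in WT and 12.2 and 18.04 RPKM in KI on 191, 131, 498 and 768 reads, with means of 5.11 ± 0.149 and 15.1 ± 4.16 RPKM, a ratio of 2.96 and a log2 difference of 1.37 (SE 0.19). The chemokine gene Cxcl10, which draws T cells, was near the limit of detection, at 0.196 and 0.149 RPKM in WT and 0.183 and 0.396 RPKM in KI, and its groups overlapped.

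**Figure D2:**
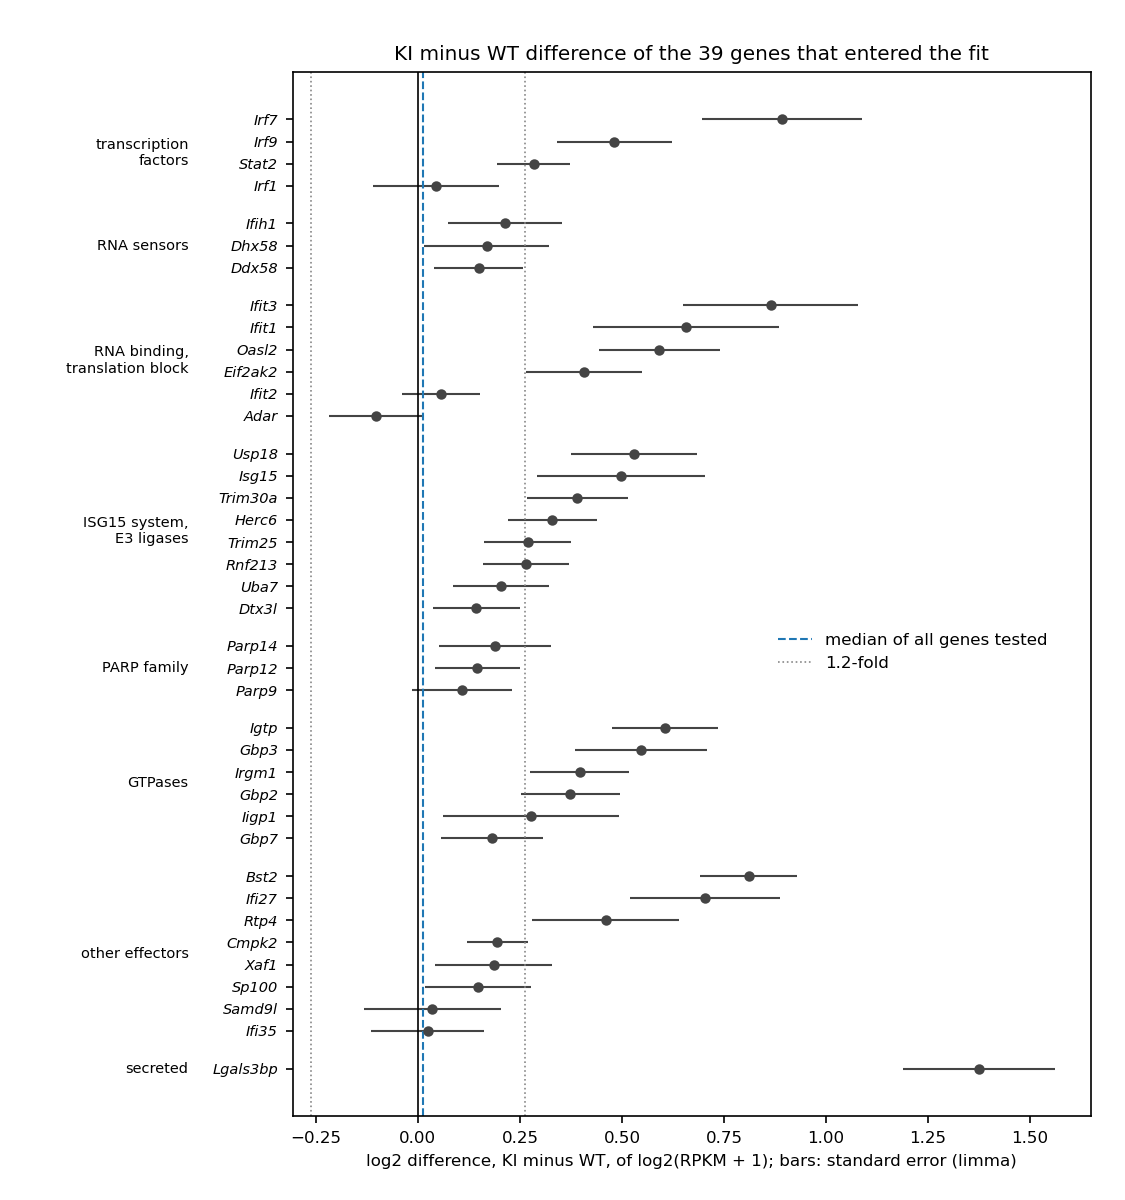
Log2 difference between KI and WT of the 39 interferon-stimulated genes that entered the fit, grouped by role, with the standard error from limma as bars, a dashed line at the median of all genes tested (0.01) and dotted lines at 1.2-fold. The points run from -0.10 in Adar to 1.37 in Lgals3bp.

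The KI samples differed from each other in the same genes. KI replicate 2 was above KI replicate 1 in 40 of the 44 genes and in 36 of the 39 in the fit, against 52.0% of all genes tested. It was at least 1.2-fold above in 16 of the 39, against 8.34% of all genes tested, and the median of this difference was 0.24 on the log2 scale, against 0.01 over all genes tested. The exceptions were Cmpk2, Parp9, Sp100 and Zbp1. The WT samples showed no such order, with WT replicate 2 above WT replicate 1 in 22 of the 44 genes and in 52.3% of all genes tested. Taken 1 at a time, KI replicate 1 exceeded both WT samples in 31 of the 39 genes (37.9% of all genes tested) and KI replicate 2 in 38 (39.6%). The median log2 difference of the 39 genes was 0.22 with KI replicate 1 alone and 0.34 with KI replicate 2 alone.

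Both KI samples entered the KI and WT values with which the genes were chosen, so the order of the KI samples is a description too and no independent measure. Ifit3, Ifit1, Iigp1, Lgals3bp, Ifi27 and Isg15 had the widest differences between the KI samples, from 0.50 to 0.60 on the log2 scale. Of the genes in the fit, Rnf213, Ifih1, Ddx58, Sp100 and Herc6 were nearly level between the KI samples. In each of these genes both KI samples were above both WT samples.

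**Figure D3:**
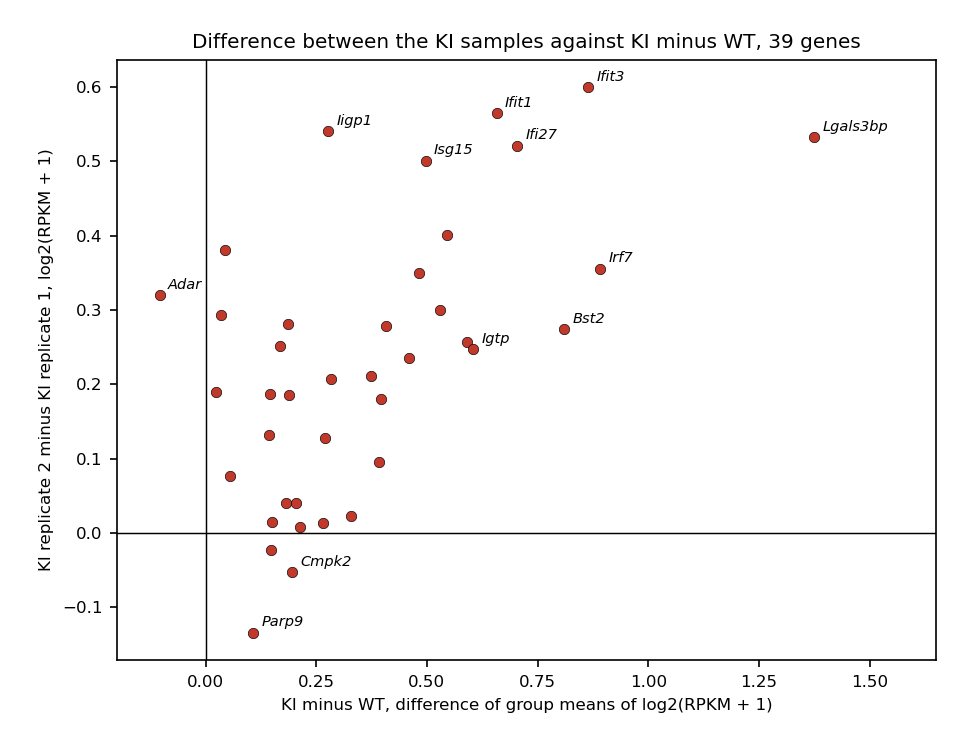
Difference between KI replicate 2 and KI replicate 1 against the difference between the KI and WT means for the 39 interferon-stimulated genes in the fit, both in log2(RPKM + 1), with 1 point per gene. Of the 39 points, 36 lie above the horizontal line at 0, and Lgals3bp lies farthest to the right at 1.37.

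The genes upstream of this set were counted from lists of known pathway genes. Of 21 interferon genes, 20 were listed in none of the files under the IDs used here, and Ifnk was listed in KI replicate 1 alone at 0.0864 RPKM. Of 16 receptors, kinases and regulators, 14 entered the fit, with a median log2 difference of -0.01. Both KI values were above both WT values in 4 of the 14 and below them in 4, against 24.0% and 18.1% of all genes tested. Among these 14 limma called 0 in either direction, as it did among all 18436 genes tested. The receptor genes Ifnar1, Ifnar2, Ifngr1 and Ifngr2 had differences of -0.03, 0.12, 0.17 and 0.04. Socs3, an inhibitor of the JAK kinases, had a difference of 0.23, and Stat3 (-0.13) had the lowest. Socs3 entered the fit through its KI values alone, at 0.258 and 0.353 RPKM in WT and 0.529 and 0.532 RPKM in KI. Of 15 sensors and adaptors that lead to interferon production, 13 entered the fit, limma called 0 in either direction, and the median was 0.05. Both KI values were above both WT values in 4 of the 13 and below them in 2. Tlr9 (0.21), Myd88 (0.20), Tlr7 (0.16) and Irf3 (0.15) had the widest differences.

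Of 69 further interferon-stimulated genes, 41 entered the fit and limma called 0 in either direction, against 0.00% of all genes tested. How many of the 41 entered it through their KI values alone was not worked out. Both KI values were above both WT values in 23 of these 41 and below them in 2, against 24.0% and 18.1% of all genes tested. Their median log2 difference was 0.18, with a range of -0.21 to 0.94. Of the 24 that were listed but below the filter, 12 had both KI values above both WT values and 1 (Ccl5) had them below. KI was above WT in this way in 21.2% of all 26328 genes listed, and the share among genes below the filter was not worked out. At such low levels a value can rest on few reads. Ifitm3, which blocks viral entry, was at 5.61 and 6.01 RPKM in WT and 10.3 and 14.2 RPKM in KI, a log2 difference of 0.94. Ifi27l2a, Ifit3b and Slfn2 followed with 0.84, 0.70 and 0.51. KI replicate 2 was above KI replicate 1 in 25 of the 41, against 52.0% of all genes tested. The 2 genes with both KI values below WT, named after their values were seen, were Pml (-0.13) and Tdrd7 (-0.15).

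Markers of other cell types were followed in the same samples. Of 10 microglia markers, 4 were above WT in both KI samples and 1 (P2ry12) below, and their summed level was 113 and 111 RPKM in WT and 122 and 112 RPKM in KI. KI replicate 2 was above KI replicate 1 in 2 of the 10. Of 7 endothelium markers, 4 were above WT in both KI samples and 1 below, with sums of 62.5 and 70.4 RPKM in WT and 72.5 and 80.1 RPKM in KI, and KI replicate 2 was above KI replicate 1 in 5 of the 7. Ly6c1 had the widest difference of these, 0.43. Of 13 markers of blood leukocytes, only Ly6c2 entered the fit, at 0.749 and 1.14 RPKM in WT and 1.75 and 2.27 RPKM in KI, and the T cell genes Cd3e and Cd3g and the B cell gene Ms4a1 were listed in none of the files. The 5 red blood cell markers summed to 44.9 and 49.4 RPKM in WT and 34.6 and 56.2 RPKM in KI, with KI replicate 2 above KI replicate 1 in 5 of 5. The 5 choroid plexus markers summed to 14.0 and 19.8 RPKM in WT and 60.3 and 16.7 RPKM in KI. Of the 3 that entered the fit, 1 was above WT in both KI samples and 0 below. KI replicate 2 was above KI replicate 1 in 0 of the 3. The 4 oligodendrocyte markers overlapped between the groups in 4 of 4, with KI replicate 2 above KI replicate 1 in 0, at 607 and 706 RPKM in WT and 764 and 581 RPKM in KI. The 6 astrocyte markers summed to 462 and 453 RPKM in WT and 476 and 490 RPKM in KI. Of these 6, 3 were above WT in both KI samples and 1 below, and KI replicate 2 was above KI replicate 1 in 6. The 7 hippocampal neuron markers summed to 1176 and 1165 RPKM in WT and 1153 and 1127 RPKM in KI, with KI replicate 2 above KI replicate 1 in 3. Of these 7, 0 were above WT in both KI samples and 3 below. Their mean log2(RPKM + 1) minus the WT mean was -0.21 in KI replicate 1 and -0.08 in KI replicate 2. Over all genes tested, both KI values were above both WT values in 24.0% and below them in 18.1%. KI replicate 2 was above KI replicate 1 in 52.0% of all genes tested. The part of these cell types in the differences of the interferon-stimulated genes was not tested.

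**Figure D4:**
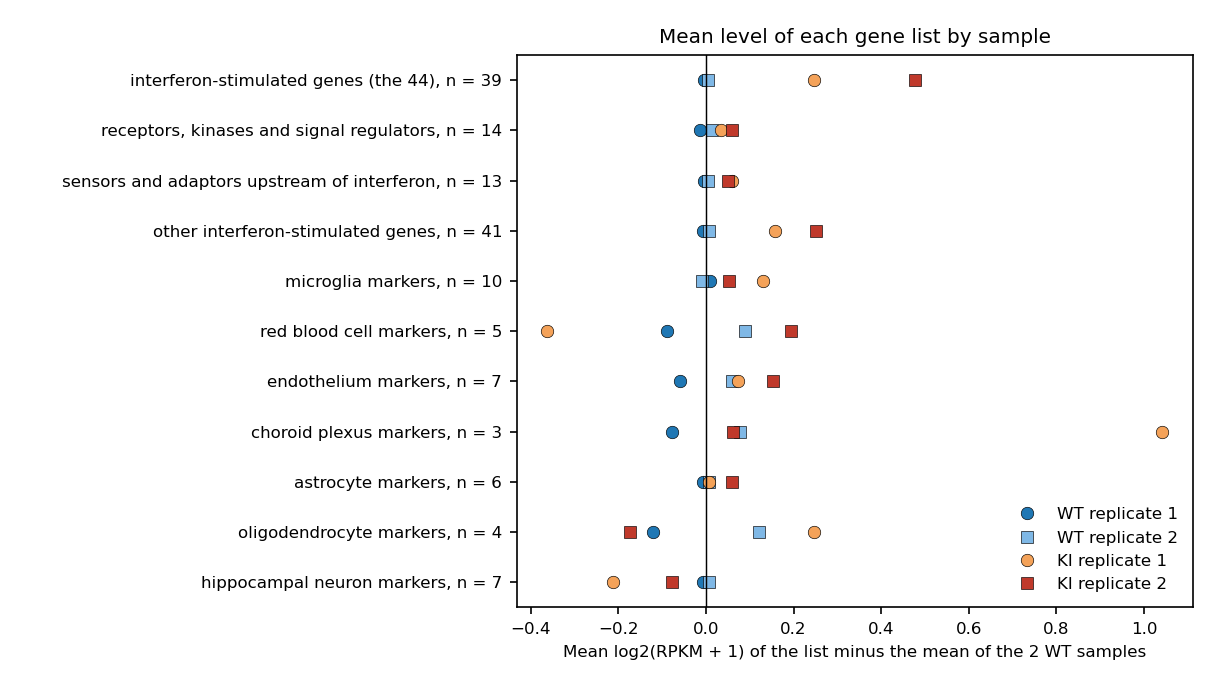
Mean log2(RPKM + 1) of each gene list in each sample, minus the mean of the 2 WT samples, with n the number of genes in the fit. The 44 interferon-stimulated genes, of which 39 are in the fit, stand at 0.25 in KI replicate 1 and 0.48 in KI replicate 2, and the 41 further interferon-stimulated genes at 0.16 and 0.25, while the choroid plexus markers are high in KI replicate 1 alone.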

How the data were processed

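Hippocampal poly(A) RNA of 2 WT and 2 KI samples was sequenced in paired-end mode (reads of 151 bases). The authors aligned the reads to mm10 with GSNAP and deposited 1 RPKM value per Ensembl gene and sample, with no counts. A gene absent from a file was taken as 0. How strand was treated is not given in the sources used here. Because RPKM are not counts, no count model was used. KI and WT were compared with limma 3.58.1 (R 4.3.3, with a mean-variance trend) on log2(RPKM + 1), for genes that reached 0.5 RPKM in 2 or more samples, with Benjamini-Hochberg adjustment over all genes tested. The threshold was an adjusted p under 0.1 and at least 1.2-fold, and a fold on this scale understates the change of low genes. The p-values measure only the spread between these samples, which may be technical.

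Mapped reads were worked out from the RPKM steps and GENCODE M21 exon lengths, and serve only to state precision. The commonest step was taken as 1 read, and whether it stood for a read or a pair of reads is not given. Of the genes at low values, 66.2% (WT replicate 2) to 68.7% (KI replicate 2) came out whole, within 0.005 of a read. Read counts of single genes are given where the values came out whole, within 0.05 of a read or 0.02%, which held for 29 of the 44 genes. They cover counting error only.

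The 44 genes and all lists were chosen with earlier results of these data known. Values of each sample are given for the transcription factors, the 10 genes with the widest log2 difference and the 10 with the highest mean RPKM, and those of Isg15, the genes below the filter and a few genes at the ends of a range or with overlapping groups were added after the values were seen. A gene of the pathway lists is not reported here. Promoters came from RefSeq (GRCm38.p6). The limma script was tested on simulated data with the same fixed dispersion for all genes, which does not measure its power on these samples. The alternatives covered the pseudocount, filters, scaling, trend, a replicate block, thresholds, the motif letters and leaving out each sample. Samples with the same replicate number did not deviate together (r = -0.02 across 18436 genes).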

Additional observations from a re-analysis of the deposited data

How the results depend on the processing

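No interferon-stimulated gene of the 44 passed the threshold under any alternative run, and with a replicate block limma called 0 genes in all. Without the mean-variance trend limma called 20 genes, 17 higher and 3 lower, none among the 44. Leaving out 1 sample gave 0 genes each time. It moved the median log2 difference of the 39 genes between 0.22, without KI replicate 2, and 0.34, without KI replicate 1. It left 31 to 38 of them with every KI value above every WT value. This is a weaker condition with fewer samples, which 37.9% to 39.6% of all genes tested met. Without KI replicate 2, 3 of the 39 genes had the KI value below both WT values. A pseudocount of 0.1 raised that median from 0.28 to 0.53 and the median of the further interferon-stimulated genes from 0.18 to 0.28, since it stretches low values, and with no filter the latter was 0.12. Quantile normalization left 28 of 39 genes with both KI values above both WT values, against 19.2% of all genes.

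Of the values of single genes, 442 kept their direction and 8 reversed. Many of the 442 were bound to agree, since the replicate block, the trend and the filters cannot change the log2 difference of a gene. The count is therefore no measure of robustness. Ifi35 turned to -0.029 and Samd9l to -0.028 with quantile normalization. When 1 sample was left out, Ifi35 ran from -0.078 without WT replicate 1 to 0.13, and it was -0.071 without KI replicate 2. Samd9l ran from -0.11 without KI replicate 2 to 0.18, and it was -0.059 without WT replicate 1. Irf1 ran from -0.15 without KI replicate 2 to 0.23, and Adar from -0.26 to 0.057 without KI replicate 1. The share of genes with the ISRE core was 28.6% when the letters CT had to follow it (0.303% of all genes of the promoter table) and 20% on the forward strand only (2.06%), against 45.7% (3.99%) in the search reported. With 1 read worth up to 0.0566 RPKM at 2 kb of exon, genes such as Zbp1 and Oas2 rest on few reads.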
